A study of Mus musculus with 12 samples.

Results

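Transcripts of 10 genes of the interleukin-1 (IL-1) family, tumour necrosis factor (TNF) and their receptors and soluble antagonists were followed in the kidney cortex of mice given an ethanol diet, bacterial lipopolysaccharide (LPS), or both. The genes were taken by name: the ligands Il1a, Il1b, Il18, Il33 and Tnf, the antagonists Il1rn and Il18bp, and the receptors Il1r1, Tnfrsf1a and Tnfrsf1b. All 10 were among the 47719 genes of the expression table, and 9 of them, all but Il1a, were among the 14109 that passed the filter on low values (1 FPKM or more in at least 3 of 12 libraries). FPKM, fragments per kilobase of transcript scaled for the size of the library, is a level corrected for gene length.

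The animals were male C57BL6/J mice, 8 weeks old by the labels, with no transgene named. Pair-fed mice received an iso-caloric maltose-dextrin diet, and ethanol-fed mice a Lieber-DeCarli liquid diet that was stepped up to 6% ethanol, both for 6 weeks. Each diet was combined with an intraperitoneal injection of saline or of E. coli LPS at 10 mg/kg given 4 hours before the kidneys were taken. This gave 4 groups of 3 total RNA libraries: pair-fed saline, pair-fed LPS, ethanol saline and ethanol LPS. The labels name the cortex as the tissue region but the whole kidney as the source. They do not say whether each library came from a separate mouse, so the p-values reflect only how far these libraries vary, which may be technical.

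IL-1 alpha and IL-1 beta bind the receptor IL-1R1, which signals through MyD88 and IRAK kinases to NF-kappaB, and the antagonist encoded by Il1rn occupies the same receptor without signalling. IL-18, made as a precursor in epithelial cells including those of the renal tubule, is neutralised by the secreted IL-18 binding protein, while IL-33 is a nuclear alarmin released from damaged barrier cells. TNF acts through TNFR1, encoded by Tnfrsf1a, whose death domain recruits TRADD and RIPK1, and through TNFR2, encoded by Tnfrsf1b, which lacks a death domain.

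Promoters of 4 ligand genes are shown because they share a TATA box at the usual distance from the start, with those of the TNF receptor genes beside them. RefSeq promoter sequences of GRCm38.p6 matched 10 of 10 genes, with 14 annotated start sites. The letters TATAAA on the strand of the gene, with the first base 25 to 35 bases before a start site, occurred upstream of Il1a (32 bases before the start), Il1b (31), Tnf (29) and the downstream start of Il33 (29), against 1.75% of 32851 RefSeq promoters. The other 6 genes did not have these letters in that interval. The last 100 bases before the start site are given 5′ to 3′, with matches to the searched motifs in capitals.
Il1a (chr2:129309973-129310072, minus strand): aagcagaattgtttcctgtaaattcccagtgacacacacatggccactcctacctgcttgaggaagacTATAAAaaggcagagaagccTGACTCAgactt
Il1b (chr2:129371140-129371239, minus strand): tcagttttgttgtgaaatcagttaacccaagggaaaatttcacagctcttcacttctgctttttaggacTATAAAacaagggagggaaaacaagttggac
Tnf (chr17:35202008-35202107, minus strand): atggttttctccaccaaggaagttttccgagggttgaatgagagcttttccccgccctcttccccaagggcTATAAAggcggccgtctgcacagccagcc
Il33 downstream start (chr19:29945690-29945789, plus strand): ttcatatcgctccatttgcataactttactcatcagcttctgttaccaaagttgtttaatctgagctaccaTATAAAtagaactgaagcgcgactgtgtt
Tnfrsf1a (chr6:125349623-125349722, plus strand): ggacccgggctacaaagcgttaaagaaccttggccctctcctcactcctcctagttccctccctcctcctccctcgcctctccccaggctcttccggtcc
Tnfrsf1b (chr4:145246871-145246970, minus strand): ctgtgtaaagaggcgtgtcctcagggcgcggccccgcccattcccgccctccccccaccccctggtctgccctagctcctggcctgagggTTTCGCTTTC

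The capitals in the first 4 sequences mark TATAAA, and those at the end of the Il1a sequence mark TGANTCA, the AP-1 motif. The capitals at the end of the Tnfrsf1b sequence, on the opposite strand, match the interferon-stimulated response element (ISRE), searched as GAAA, any 2 bases, GAAA. Over 250 bases and both strands, TGANTCA occurred at Il1a and Il1rn and in 6.75% of all promoters. The ISRE occurred at Tnfrsf1b and in 2.98% of all promoters. TTCNNNGAA, the gamma-activated site bound by STAT factors, occurred at Tnfrsf1a and Tnfrsf1b and in 7.02% of all promoters. The NF-kappaB motif, searched in its degenerate form, was found at 1 member, Il1r1, and in 7.25% of all promoters. CCAAT was found at Il1r1, Il18, Il33 and Il18bp and in 33.8% of all promoters. Motifs did not overlap one another in the printed stretches, and a match describes letters, not binding.

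The 12 libraries had 12354 to 13092 genes at 1 FPKM or more. Depth, read from the steps between low FPKM values and set relative to the first pair-fed saline library, was 0.491 to 0.762 in the LPS libraries and 0.72 to 1.2 in the saline libraries. Proximal tubule markers summed to between 42721 and 107981 FPKM per library, and all 9 of them passed the filter on low values. How far single markers carry that sum is not reported here. GC-rich genes were low in pair-fed LPS library 2, ethanol LPS library 1 and pair-fed saline library 1, with slopes of -0.45, -0.33 and -0.27 log2 units per 10% GC where the other 9 ran from -0.07 to 0.24. Summed FPKM of 13 neutrophil markers was 4.04 to 7.74 in saline libraries and 173 to 428 in LPS libraries, carried mostly by S100a8 and S100a9, while Ly6g, Mmp9, Elane and Mpo stayed under 1 FPKM in every library. The sum of 10 endothelial markers was 125 to 167 FPKM with saline and 38.4 to 69.4 FPKM with LPS, although Cdh5 alone among them rose in both diets. The sum of 12 monocyte and macrophage markers was 20.1 to 32.4 FPKM with saline and 17.9 to 66.1 FPKM with LPS. Its markers did not move alike. In pair-fed mice Itgam, Ly6c2 and Lyz2 were called higher with LPS and Ccr2 lower. Under ethanol only Ccr2 was called, again lower. There Ly6c2 (0.81 ± 0.28 log2 units, adjusted p = 0.0674) and Lyz2 (0.69 ± 0.38, adjusted p = 0.271) were not called. In bulk tissue, more cells of a type and more RNA per cell cannot be told apart, and the part of these shifts in the results that follow was not tested.

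The first question was which of these genes responded to LPS in each diet. In pair-fed mice, 9 of the 9 members tested rose with LPS, against 11.3% of all genes tested called higher (1589 of 14109) and 6.89% called lower (972). In ethanol-fed mice, 8 of 9 rose, against 10.7% of all genes called higher (1504) and 6.39% called lower (902). The exception was Il18, and no member fell. Without the filter the counts were 9 of 10 and 8 of 10, against 3.57% and 3.35% of 36616 genes called higher. The median difference over all 10 genes in that fit was 1.68 in pair-fed mice and 1.58 under ethanol, where the median over all genes was 0. In both diets, every LPS library lay above every saline library for all 10 genes. Non-overlap of that kind held for 18.5% of genes tested in pair-fed mice and 18.8% under ethanol. Il1rn, Tnfrsf1b and Tnf reached 1 FPKM only in LPS libraries, so for them passing the filter already required a high level with LPS.

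These counts rest on limma's moderated test of log2(FPKM + 1) with Benjamini-Hochberg adjustment, and differences on that scale understate the change of genes at low FPKM. When each library was scaled to the same total FPKM, the median difference over all genes moved from -0.01 to -0.41 in pair-fed and from 0.02 to -0.26 in ethanol-fed mice. The calls then split 858 higher to 2565 lower in pair-fed and 974 higher to 1772 lower in ethanol-fed mice. Under that scaling 7 members were still called higher in pair-fed mice, with Il1r1 at adjusted p = 0.0768 and Tnfrsf1a at 0.0801.

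**Figure D1:**
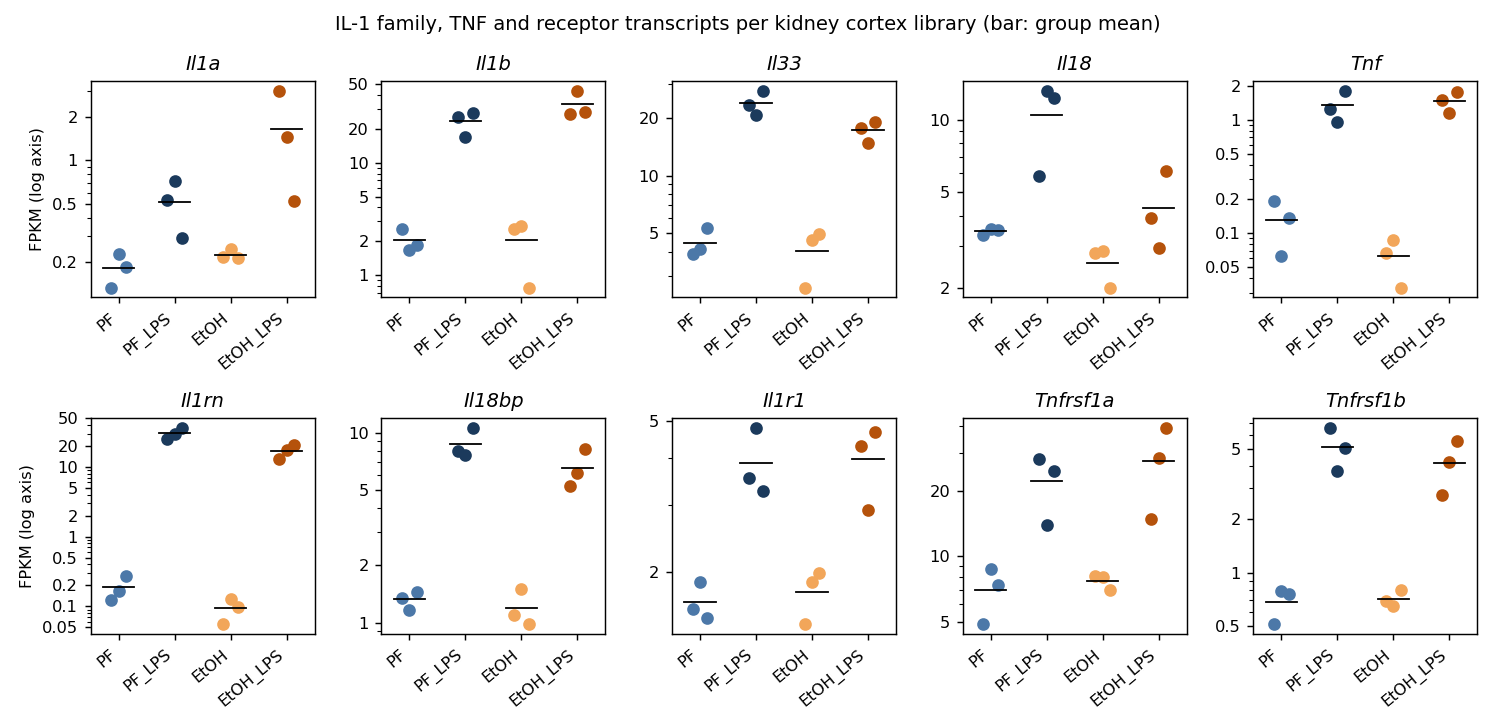
FPKM of the 10 genes in every library (points, log axis) with the group mean (bar), for pair-fed saline (PF), pair-fed LPS (PF_LPS), ethanol saline (EtOH) and ethanol LPS (EtOH_LPS), 3 libraries each. In each panel the LPS libraries of a diet lie above its saline libraries, and Il18 in the ethanol LPS group stays between 2.95 and 6.11 FPKM.

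Among the ligands, Il1b had the largest difference on the log2 scale in both diets. Il1b (ENSMUSG00000027398, chromosome 2, 129364570 to 129371139, minus strand, mm10), the secreted IL-1 that is cleaved by caspase-1, stood at 2.59, 1.67 and 1.86 FPKM in the pair-fed saline libraries and at 25.4, 16.8 and 27.8 FPKM with LPS. In ethanol-fed mice it stood at 2.58, 2.75 and 0.776 FPKM with saline and at 27.2, 43.4 and 28.2 FPKM with LPS. Saline and LPS libraries were far apart in both diets, and the highest single value was in the second ethanol LPS library. The difference was 2.98 ± 0.31 log2 units (SE; adjusted p = 2.81e-05) in pair-fed and 3.53 ± 0.31 (adjusted p = 6.67e-06) in ethanol-fed mice.

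Il1a (ENSMUSG00000027399, chromosome 2, 129299610 to 129309972, minus strand) encodes IL-1 alpha, which is active in its precursor form and also works as an alarmin. It lies 54.6 kb from Il1b. Its level was 0.134, 0.226 and 0.186 FPKM with saline and 0.539, 0.725 and 0.291 FPKM with LPS in pair-fed mice. In ethanol-fed mice the values were 0.216, 0.247 and 0.213 FPKM with saline and 3.01, 1.44 and 0.526 FPKM with LPS. Only 2 libraries, both ethanol LPS, reached 1 FPKM, and the third of that group lay below 2 of the pair-fed LPS libraries. In the fit without the low-value filter the difference was 0.35 ± 0.28 (adjusted p = 0.578) in pair-fed and 1.01 ± 0.28 (adjusted p = 0.0714) in ethanol-fed mice. The second value passed the threshold without ethanol LPS library 3 (adjusted p = 0.00592), with a pseudocount of 0.1 in place of 1 (0.0274) and with a filter at a mean of 0.1 FPKM (0.0364).

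Il33 (ENSMUSG00000024810, chromosome 19, 29925114 to 29960718, plus strand), the nuclear alarmin, was measured at 3.9, 4.15 and 5.32 FPKM in pair-fed saline libraries and at 23.5, 20.8 and 27.7 FPKM with LPS. In ethanol-fed mice it went from 2.61, 4.6 and 4.93 FPKM to 17.7, 14.8 and 19.1 FPKM. The LPS values were tightly grouped in each diet. The rise was 2.2 ± 0.21 log2 units (adjusted p = 1.71e-05) in pair-fed and 1.88 ± 0.21 (adjusted p = 6.47e-05) in ethanol-fed mice.

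Il18 (ENSMUSG00000039217, chromosome 9, 50554827 to 50581840, plus strand), the tubular IL-1 family cytokine, was the ligand whose response was called in 1 diet and not in the other. Pair-fed saline libraries had 3.32, 3.52 and 3.49 FPKM, and pair-fed LPS libraries had 5.83, 13.2 and 12.3 FPKM. Ethanol saline libraries had 2.8, 2.85 and 2.01 FPKM, and ethanol LPS libraries had 3.91, 2.95 and 6.11 FPKM. The first pair-fed LPS library lay below the highest ethanol LPS library, and the lowest ethanol LPS library barely exceeded its saline counterparts. The difference was 1.29 ± 0.28 (adjusted p = 0.00796) in pair-fed and 0.55 ± 0.28 (adjusted p = 0.238) in ethanol-fed mice. The test of the difference between these responses, the interaction of diet and LPS, gave -0.74 ± 0.40 (unadjusted p = 0.0891, adjusted p = 0.988), so the diets were not shown to differ. The pair-fed call was lost (adjusted p = 0.0681) without the 3 libraries of lowest GC slope, an alternative added after the data were seen. Il18 shares 355 bases on the opposite strand with Bco2, at 5.76 to 13.8 FPKM, and whether the counting used strand is not given in the sources used here.

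Tnf (ENSMUSG00000024401, chromosome 17, 35199381 to 35202007, minus strand), a cytokine made chiefly by myeloid cells, stayed low throughout. Pair-fed libraries had 0.192, 0.0634 and 0.137 FPKM with saline and 1.25, 0.956 and 1.8 FPKM with LPS. Ethanol libraries had 0.0674, 0.087 and 0.0333 FPKM with saline and 1.48, 1.14 and 1.76 FPKM with LPS. The LPS ranges of the diets nearly coincided. Tnf rose by 1.03 ± 0.17 log2 units (adjusted p = 0.00116) in pair-fed and 1.21 ± 0.17 (adjusted p = 0.000392) in ethanol-fed mice. On this scale a gene below 1 FPKM at baseline moves little, and the ratio of mean FPKM was 10.2 in pair-fed mice and 23.4 under ethanol.

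Of the antagonists, Il1rn had the largest difference of all 10 genes in both diets. Il1rn (ENSMUSG00000026981, chromosome 2, 24336853 to 24351494, plus strand), the IL-1 receptor antagonist, was at 0.122, 0.169 and 0.274 FPKM in pair-fed saline libraries and at 25.1, 29.8 and 36.5 FPKM with LPS. Ethanol saline libraries had 0.0554, 0.127 and 0.0974 FPKM, and ethanol LPS libraries had 12.8, 17.6 and 20.4 FPKM. Every ethanol LPS library was below every pair-fed LPS library. Il1rn rose by 4.71 ± 0.19 (adjusted p = 9.61e-09) in pair-fed and by 4.01 ± 0.19 (adjusted p = 3.59e-08) in ethanol-fed mice. The ratios of mean FPKM were 162 and 181.

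Il18bp (ENSMUSG00000070427, chromosome 7, 102014885 to 102018690, minus strand), the secreted trap for IL-18, went from 1.35, 1.17 and 1.46 FPKM to 7.97, 7.58 and 10.6 FPKM in pair-fed mice. In ethanol-fed mice it went from 1.1, 1.51 and 0.979 FPKM to 5.24, 6.14 and 8.17 FPKM. Saline values were alike in both diets, and the LPS ranges overlapped. The rise was 2.05 ± 0.19 (adjusted p = 1.12e-05) in pair-fed and 1.76 ± 0.19 (adjusted p = 4.19e-05) in ethanol-fed mice. Il18bp overlaps Numa1 on the opposite strand by 80 bases.

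Receptor transcripts rose too, with smaller differences than those of Il1b and Il1rn. Il1r1 (ENSMUSG00000026072, chromosome 1, 40225080 to 40317257, plus strand), the signalling receptor for both IL-1 forms, had 1.6, 1.88 and 1.51 FPKM with saline and 3.54, 4.81 and 3.27 FPKM with LPS in pair-fed mice. Ethanol-fed mice had 1.46, 1.88 and 1.99 FPKM with saline and 4.3, 2.91 and 4.69 FPKM with LPS. The diets could hardly be distinguished at either injection. The rise was 0.86 ± 0.19 (adjusted p = 0.00763) in pair-fed and 0.83 ± 0.19 (adjusted p = 0.00966) in ethanol-fed mice, and the pair-fed call was lost without the 3 libraries of lowest GC slope (adjusted p = 0.0533).

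Tnfrsf1a (ENSMUSG00000030341, chromosome 6, 125349362 to 125362484, plus strand), which encodes the death-domain receptor TNFR1, had 4.86, 8.73 and 7.41 FPKM with saline and 28, 14 and 24.9 FPKM with LPS in pair-fed mice. Ethanol-fed mice had 8.12, 8.03 and 6.97 FPKM with saline and 14.9, 28.3 and 39.3 FPKM with LPS. The lowest library of the pair-fed saline, pair-fed LPS and ethanol LPS groups was in each case the one with the lowest GC slope, and at 57% GC Tnfrsf1a is the most GC-rich of the 10 genes. The part of GC content in these values was not tested. Tnfrsf1a rose by 1.52 ± 0.34 (adjusted p = 0.009) in pair-fed and 1.61 ± 0.34 (adjusted p = 0.00625) in ethanol-fed mice.

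Tnfrsf1b (ENSMUSG00000028599, chromosome 4, 145213463 to 145246870, minus strand), which encodes TNFR2, a receptor prominent on leukocytes and endothelium, had 0.513, 0.785 and 0.755 FPKM with saline and 6.58, 3.73 and 5.06 FPKM with LPS in pair-fed mice. In ethanol-fed mice it had 0.693, 0.652 and 0.799 FPKM with saline and 2.73, 4.19 and 5.51 FPKM with LPS. No saline library reached 1 FPKM and no LPS library was below 2.73 FPKM. As for Tnfrsf1a, the lowest value of the pair-fed saline, pair-fed LPS and ethanol LPS groups was in the library of lowest GC slope, and Tnfrsf1b has 56.6% GC. The rise was 1.84 ± 0.22 (adjusted p = 0.000107) in pair-fed and 1.55 ± 0.22 (adjusted p = 0.000445) in ethanol-fed mice.

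**Figure D2:**
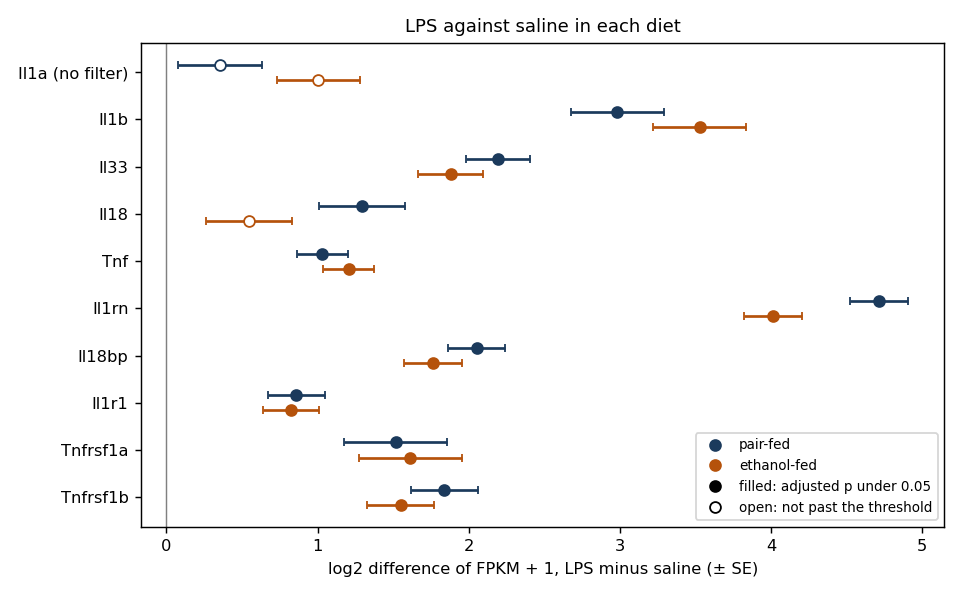
Difference of log2(FPKM + 1) between LPS and saline for each gene in pair-fed (blue) and ethanol-fed (orange) mice, with bars of ± 1 SE from the fit to 12 libraries. Filled points passed an adjusted p of 0.05, and Il1a, shown from the fit without the filter, and Il18 in ethanol-fed mice (0.55 ± 0.28) are open.

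The order of the levels changed with LPS. In pair-fed saline libraries, mean FPKM ran from Tnfrsf1a (7 ± 1.97, SD, n = 3) and Il33 (4.46 ± 0.762) through Il18 (3.44 ± 0.11), Il1b (2.04 ± 0.484), Il1r1 (1.67 ± 0.193), Il18bp (1.32 ± 0.146) and Tnfrsf1b (0.684 ± 0.149) to Il1rn (0.188 ± 0.0779), Il1a (0.182 ± 0.0461) and Tnf (0.131 ± 0.0646). Tnfrsf1a overlapped Il33, Il1b overlapped Il1r1, and Il1rn, Il1a and Tnf overlapped in sequence. With LPS in the same diet, Il1rn came first at 30.5 ± 5.74 FPKM, followed by Il33 (24 ± 3.49), Il1b (23.3 ± 5.78) and Tnfrsf1a (22.3 ± 7.37), and each of these overlapped the next. Il18 (10.4 ± 4) and Il18bp (8.72 ± 1.66) also overlapped, as did Tnfrsf1b (5.12 ± 1.43) and Il1r1 (3.87 ± 0.821), above Tnf (1.34 ± 0.425) and Il1a (0.518 ± 0.218).

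In the ethanol saline group Tnfrsf1a (7.71 ± 0.637 FPKM) again stood first and Tnf (0.0626 ± 0.0272) last, with Il33, Il18, Il1b, Il1r1 and Il18bp overlapping in sequence between 4.05 ± 1.26 and 1.2 ± 0.278 FPKM. Il1rn moved from rank 9 in that group to rank 4 with LPS. In the ethanol LPS group Il1b came first at 33 ± 9.08 FPKM, then Tnfrsf1a (27.5 ± 12.2), Il33 (17.2 ± 2.19) and Il1rn (16.9 ± 3.81), each overlapping the next. The only gap between neighbours in that group lay between Il1rn and Il18bp (6.52 ± 1.5), and Il18 (4.32 ± 1.62) fell in the range of Tnfrsf1b (4.15 ± 1.39) and Il1r1 (3.97 ± 0.936).

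The second question was whether the ethanol diet itself altered these transcripts. Without LPS, limma called 0 of 9 members, and 0.0284% of all genes were called in either direction. Unadjusted p was under 0.05 for 0 members and for 521 of the 14109 genes tested. Il18 was the member whose groups did not overlap: its ethanol saline values, up to 2.85 FPKM, lay below the pair-fed minimum of 3.32 FPKM, a difference of -0.33 ± 0.28 (adjusted p = 1). Such non-overlap in the lower direction held for 6.93% of genes tested.

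With LPS on board, limma again called 0 of 9 members between ethanol-fed and pair-fed mice, and 0.0992% of all genes were called. Unadjusted p was under 0.05 for 2 members and for 1524 of the 14109 genes tested. The lowest p among members was that of Il1rn, at 16.9 ± 3.81 FPKM in ethanol LPS and 30.5 ± 5.74 FPKM in pair-fed LPS libraries, a difference of -0.82 ± 0.19 (unadjusted p = 0.00113, adjusted p = 0.127). Il18 had the largest difference, -1.07 ± 0.28 (unadjusted p = 0.00276, adjusted p = 0.179), with pair-fed LPS above ethanol LPS libraries in the mean (10.4 ± 4 and 4.32 ± 1.62 FPKM). It passed the threshold without pair-fed LPS library 1 (-1.41, adjusted p = 0.045).

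Il1rn and Il33 were the members whose LPS libraries did not overlap between the diets, both lower with ethanol, against 5.59% of genes tested. For Il33 the difference was -0.45 ± 0.21 (adjusted p = 0.472), and for Il18bp, whose ranges overlapped, -0.38 ± 0.19 (adjusted p = 0.495). The agonists Il1b and Il1a had differences of the opposite sign. Il1b differed by 0.48 ± 0.31 (adjusted p = 0.598), with the highest pair-fed LPS library (27.8 FPKM) just above the lowest ethanol LPS library (27.2 FPKM). Il1a differed by 0.71 ± 0.28 (adjusted p = 0.666, without the filter). Beside these values, the neutrophil marker sum was 192 to 428 FPKM in pair-fed LPS and 173 to 266 FPKM in ethanol LPS libraries. The monocyte and macrophage marker sum was 23.2 to 66.1 FPKM in pair-fed LPS and 17.9 to 28.8 FPKM in ethanol LPS libraries, with all 12 of these markers above 1 FPKM in at least 1 library. Over the 10 of them tested, the median difference between the diets with LPS was -0.10, and 0 were called. Single markers went both ways, from Lyz2 at -1.11 ± 0.38 to C1qc at 0.18 ± 0.27. The part of either cell type in the differences of Il1b, Il1rn and Il18 was not tested.

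**Figure D3:**
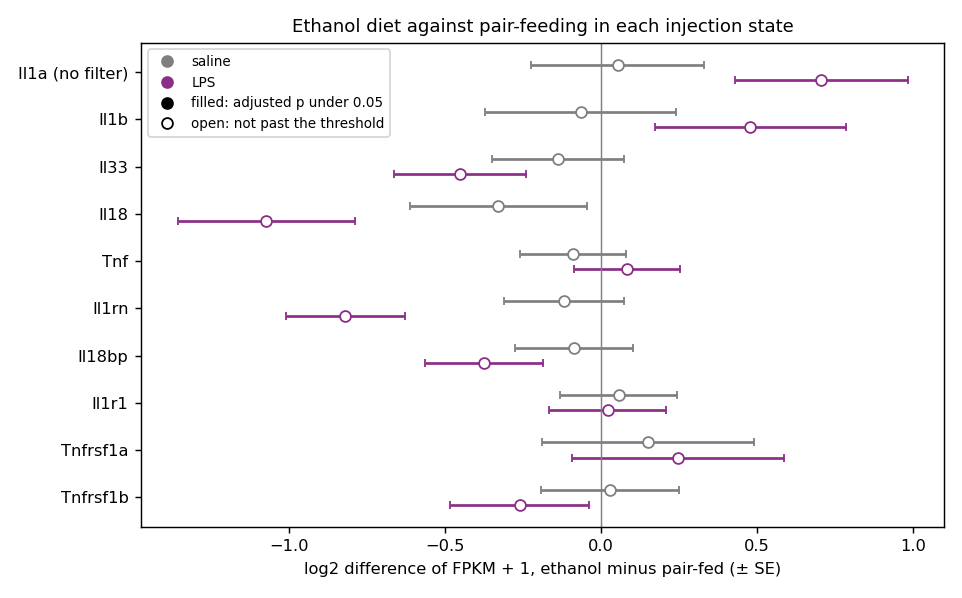
Difference of log2(FPKM + 1) between ethanol and pair-feeding for each gene in saline (grey) and LPS (purple) libraries, with bars of ± 1 SE. All points are open because none passed an adjusted p of 0.05, and with LPS the values of Il18 (-1.07), Il1rn (-0.82) and Il33 (-0.45) lie left of 0 while Il1b (0.48) lies right.

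Averaged over both injection states, 0 of 9 members were called, and 0.319% of all genes were called. Unadjusted p was under 0.05 for 2 members and for 1334 of the 14109 genes tested. Il18 differed by -0.70 ± 0.20 (adjusted p = 0.232) and Il1rn by -0.47 ± 0.14 (adjusted p = 0.239), and Il18 passed without pair-fed LPS library 1 (adjusted p = 0.0473). The interaction of diet and LPS likewise gave 0 of 9 calls, and 0.0284% of all genes were called. Unadjusted p was under 0.05 for 1 member and for 616 of the 14109 genes tested. That 1 member was Il1rn, whose LPS response on the log2(FPKM + 1) scale was smaller by 0.70 ± 0.27 in ethanol-fed mice (unadjusted p = 0.0239, adjusted p = 0.988). Its ratio of mean FPKM between LPS and saline was not smaller, at 181 in ethanol-fed and 162 in pair-fed mice. Its saline values lay far below the 1 FPKM added on that scale. For Il1b the interaction was 0.54 ± 0.43 (adjusted p = 0.988). Averaged over the diets, LPS raised 9 of 9 members, against 16.4% of all genes called higher.

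Because antagonist and agonist act on the same receptor or ligand, their transcripts were also set against each other within each library. The TNF receptors, which are not such a pair, were compared in the same way. These ratios are a description without a test. The Il1rn to Il1b ratio of FPKM was 0.0472, 0.101 and 0.147 in pair-fed saline and 0.989, 1.78 and 1.31 in pair-fed LPS libraries. In ethanol-fed mice it was 0.0215, 0.0462 and 0.125 with saline and 0.471, 0.404 and 0.722 with LPS. With 0.1 FPKM added to both genes, the mean in ethanol saline libraries was 0.121 in place of 0.0644. Antagonist transcript thus roughly matched agonist transcript in pair-fed LPS libraries (mean 1.36 ± 0.396, SD) and stayed below it in every ethanol LPS library (0.533 ± 0.168). These LPS groups did not overlap, but how often ratios of other gene pairs separate the diets was not examined. Il1rn alone also separated them, and limma did not call its difference (adjusted p = 0.127).

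For the Il18bp to Il18 ratio the diets stood in the opposite order of means. It averaged 0.385 ± 0.0467 in pair-fed saline and 0.469 ± 0.0704 in ethanol saline libraries. With LPS it was 1.37, 0.575 and 0.866 in pair-fed mice and 1.34, 2.09 and 1.34 under ethanol. Every ethanol LPS library had more Il18bp than Il18 transcript, and 1 pair-fed LPS library did, so the ranges overlapped. The Tnfrsf1b to Tnfrsf1a ratio went from a mean of 0.0991 ± 0.00818 to values of 0.235, 0.267 and 0.203 in pair-fed mice. In ethanol-fed mice it went from 0.0937 ± 0.0182 to 0.183, 0.148 and 0.14. TNFR1 transcript exceeded TNFR2 transcript in all 12 libraries. The LPS ranges of the diets did not overlap, again with no share for other gene pairs to set beside it.

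**Figure D4:**
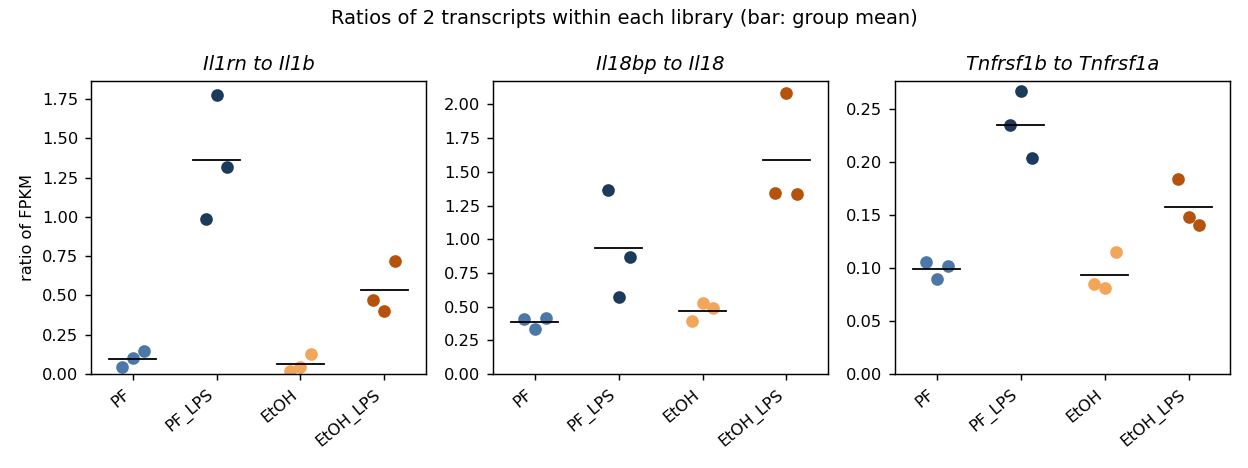
Ratio of FPKM of 2 genes within each library (points) with the group mean (bar), linear axes from 0, 3 libraries per group. Il1rn to Il1b is 0.989 to 1.78 in pair-fed LPS and 0.404 to 0.722 in ethanol LPS libraries, and Il18bp to Il18 reaches 2.09 in the ethanol LPS group.

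The remaining IL-1 family ligands lie in a cluster on chromosome 2 that ends 43 kb from Il1rn, and include the genes of the IL-36 cytokines, which act mainly in epithelia. Of 6 listed, 5 matched the annotation, 2 passed the filter and both rose in each diet, but they reached 1 FPKM only in LPS libraries, so passing already required a high level with LPS. Over the 5 matched ligands the median difference was 0.14 in pair-fed mice and 0 under ethanol. For this and the following lists, the shares of all tested genes called are 11.3% higher and 6.89% lower in pair-fed mice, and 10.7% and 6.39% under ethanol. Il1f6, which encodes IL-36 alpha, was at 0 to 0.143 FPKM in saline libraries, at 2.96 to 4.8 FPKM in pair-fed LPS and at 1.86 to 5.09 FPKM in ethanol LPS libraries, with differences of 2.15 ± 0.25 (adjusted p = 8.8e-05) and 1.94 ± 0.25 (0.00022). Il1f9, which encodes IL-36 gamma, rose by 1.36 ± 0.21 (adjusted p = 0.000708) and 1.41 ± 0.21 (0.000553). Within the same cluster Il1f8 and Il1f5 stayed under 1 FPKM, and Il1f10 was listed at 0 in every library.

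Of 9 other IL-1 family receptors and decoys, 5 were tested, of which 3 rose and 0 fell in pair-fed and 2 rose and 0 fell under ethanol. All of these called genes stayed under 1 FPKM with saline and so passed the filter through LPS libraries, and over the 9 matched genes the median difference was 0.33 in pair-fed mice and 0.12 under ethanol. Il1r2, the decoy receptor that binds IL-1 without signalling, was at 0.0926, 0 and 0 FPKM in pair-fed saline and at 3.34, 2.5 and 8.82 FPKM in pair-fed LPS libraries, a difference of 2.36 ± 0.41 (adjusted p = 0.00161). In ethanol-fed mice its difference was 1.20 ± 0.41 (adjusted p = 0.0668), with LPS values of 0.833, 4.67 and 1.93 FPKM. Il18rap, the accessory chain of the IL-18 receptor, rose by 0.95 ± 0.19 and 0.72 ± 0.19 in pair-fed and ethanol-fed mice. Il1rl2, the IL-36 receptor, rose by 0.59 ± 0.18 (adjusted p = 0.0415) in pair-fed mice and by 0.63 ± 0.18 (adjusted p = 0.0327) under ethanol. The shared accessory chain Il1rap was not called in either diet (0.33 ± 0.17 and 0.12 ± 0.17).

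Of 14 genes for the processing and release of IL-1, 9 were tested, and 5 rose in pair-fed mice and 6 under ethanol with none falling. Casp1 and Gsdmd, called in both diets, were under 1 FPKM in every saline library. Over the 14 matched genes the median difference was 0.49 in pair-fed mice and 0.69 under ethanol. Casp4, which encodes caspase-11, the cytosolic LPS sensor of mice, rose by 4.10 ± 0.26 (adjusted p = 3.5e-07) and 4.65 ± 0.26 (adjusted p = 1.12e-07). Pycard, the inflammasome adaptor ASC, rose by 1.89 ± 0.46 (adjusted p = 0.014) and 1.46 ± 0.46 (adjusted p = 0.0487) in pair-fed and ethanol-fed mice. Casp8 rose by 0.94 ± 0.20 (adjusted p = 0.00699) and 1.58 ± 0.20 (adjusted p = 0.000177). The sensor gene Nlrp3 did not pass the filter. It was at 0.075 to 0.166 FPKM in pair-fed saline and 0.342 to 0.606 FPKM in pair-fed LPS libraries, and at 0.0112 to 0.179 FPKM in ethanol saline and 0.749 to 1.32 FPKM in ethanol LPS libraries. Its LPS libraries lay above its saline libraries in both diets, which held for 18.5% of genes tested in pair-fed mice and 18.8% under ethanol. Its ethanol LPS libraries lay above its pair-fed LPS libraries. The share of genes in that direction is not given here, and no test of Nlrp3 is reported.

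All 12 genes of IL-1 receptor signalling were tested, and 3 rose and 1 fell in each diet. Myd88, the adaptor, rose by 2.40 ± 0.26 and 2.48 ± 0.26, and Irak3, an inhibitory member of the IRAK family, by 2.12 ± 0.15 and 2.25 ± 0.15 (adjusted p = 1.36e-06 and 7.68e-07). Irak3 was under 1 FPKM in every saline library. Tab1, a subunit of the TAK1 complex, fell by 0.84 ± 0.19 (adjusted p = 0.00974) and by 0.63 ± 0.19 (adjusted p = 0.0418). Over the list the median difference was 0.19 in pair-fed mice and 0.22 under ethanol, beside -0.01 and 0.02 over all genes tested.

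The TNF receptor complex had 16 genes tested, of which 7 rose and 0 fell in each diet, with medians of 0.44 and 0.51. Tnfaip3, which encodes the ubiquitin-editing enzyme A20, rose by 4.28 ± 0.19 and 4.70 ± 0.19, and Birc3, a ubiquitin ligase of the receptor complex, by 3.77 ± 0.16 and 4.41 ± 0.16. Of 13 genes for TNF shedding and control of its mRNA, 6 rose and 0 fell in pair-fed and 6 rose and 1 fell under ethanol, and 2 of those that rose in each were under 1 FPKM in every saline library. Zfp36l1, an RNA-binding protein that destabilises AU-rich transcripts, rose by 3.53 ± 0.34 and 3.51 ± 0.34, and Litaf by 2.93 ± 0.23 and 3.13 ± 0.23. Zfp36l2 of the same family fell by 0.82 ± 0.24 (adjusted p = 0.0342) in ethanol-fed mice.

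Among 17 other ligands of the TNF superfamily, 5 were tested and 3 rose and 0 fell in each diet, led by Tnfsf10, the gene of TRAIL, at 2.65 ± 0.22 and 2.50 ± 0.22, and Tnfsf9 at 1.33 ± 0.14 and 0.96 ± 0.14. Of 26 other TNF receptor superfamily genes, 11 were tested, and 6 rose in pair-fed mice and 8 under ethanol with none falling. Of those that rose, 3 and 4 were under 1 FPKM in every saline library, as was 1 ligand, Tnfsf9. Over the 17 matched ligands the median difference was 0.03 in each diet. Over the 26 matched receptor genes it was 0.14 in pair-fed mice and 0.07 under ethanol. Cd40, a costimulatory receptor, rose by 3.86 ± 0.46 and 4.48 ± 0.46, and Fas, a death receptor, by 3.48 ± 0.21 and 3.61 ± 0.21.

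Of 17 genes known to be induced by IL-1 or TNF, 16 were tested. In pair-fed mice 15 rose and 1 fell, and under ethanol 14 rose and 1 fell. Of those that rose, 9 and 8 were under 1 FPKM in every saline library. Cxcl1, a neutrophil chemoattractant, rose by 7.27 ± 0.22 and 7.67 ± 0.22, and Ccl2, a monocyte chemoattractant, by 6.56 ± 0.15 and 7.27 ± 0.15. Tnfaip8, listed as TNF-induced, fell by 1.26 ± 0.31 (adjusted p = 0.0154) and 1.31 ± 0.31 (adjusted p = 0.0128). LPS itself induces many of these genes, so the list does not separate IL-1 or TNF from LPS.

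Of all genes on these lists, 1 was called between the diets with LPS. Cxcl2, a neutrophil chemoattractant, was at 35.7, 21.5 and 33.5 FPKM in pair-fed LPS and at 65.3, 98.2 and 70.8 FPKM in ethanol LPS libraries. The groups were well apart, and the difference was 1.35 ± 0.21 (adjusted p = 0.0488), close to the threshold. Cxcl2 was not called averaged over LPS states (0.73 ± 0.15, adjusted p = 0.081) or in the interaction of diet and LPS (1.24 ± 0.30, adjusted p = 0.846). How its call depends on the processing is not reported here.

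**Figure D5:**
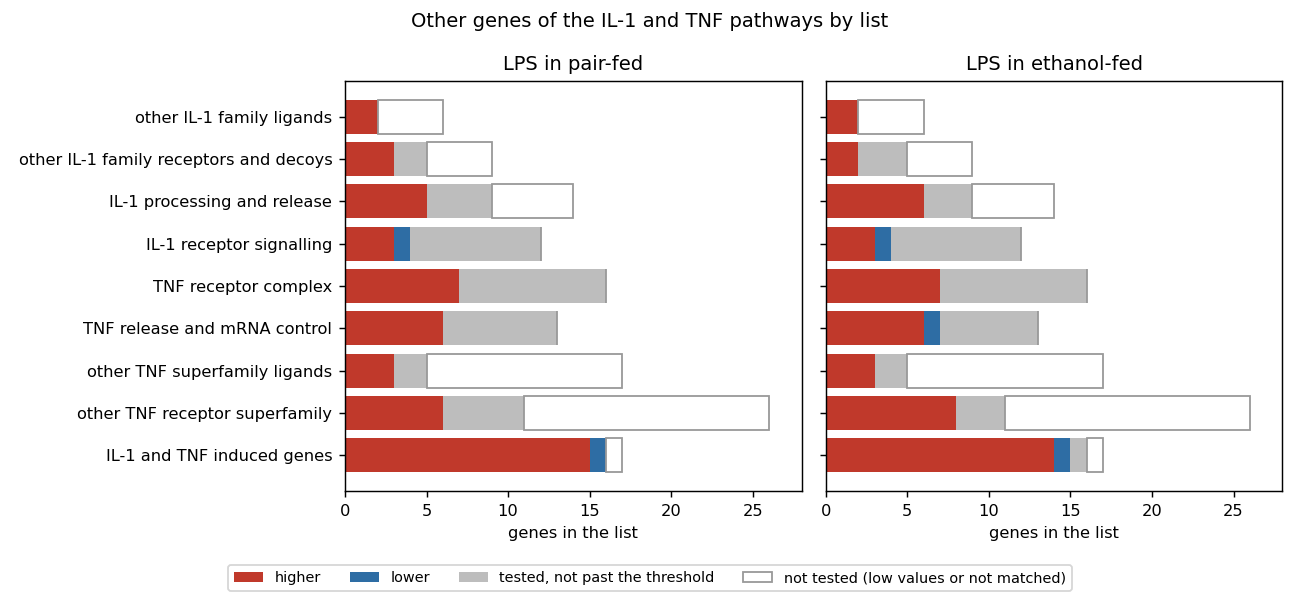
Number of genes in each list of the IL-1 and TNF pathways that were called higher (red) or lower (blue) with LPS, tested and not called (grey), or not tested (white), in pair-fed and ethanol-fed mice. Of the genes induced by IL-1 or TNF, 15 of 16 tested are higher in pair-fed mice, and of IL-1 receptor signalling 3 of 12.

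Profiles most like those of the 9 tested members were sought among 11353 protein-coding genes by the root mean square difference of log2(FPKM + 1), centred per gene, over the 12 libraries. Nearest genes were picked for likeness over these same libraries, so sharing a member's order of groups follows from the choice and is not separate evidence. Il1rn was nearest to Trim30d (0.182) and Trim30a (0.221). Trim30d ranged from 41.7 to 58.5 FPKM in pair-fed LPS and from 21.3 to 28.7 FPKM in ethanol LPS libraries. Il18 was nearest to Selenop (0.236) and Nusap1 (0.267), and Il1b to Acod1 (0.37) and Slfn2 (0.377). Il33 was nearest to Eif1a (0.197) and Psme2b (0.21), and Tnf to Rasa4 (0.135) and Bcl10 (0.15). The antagonist Il18bp was nearest to Lipg (0.149) and the receptor Tnfrsf1b to Gch1 (0.146). Tnfrsf1a was nearest to Rhbdf2 (0.175) and Parp10 (0.179), and Il1r1 to Rnf19a (0.11) and Srsf3 (0.142).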

How the data were processed

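Total RNA of mouse kidney cortex was sequenced in 12 libraries, 3 in each of 4 groups, after depletion of ribosomal RNA with a stranded kit, per the labels' protocols. The deposited table, which its title calls normalized, holds the authors' FPKM per Ensembl gene. The submitters' processing notes name Cuffnorm, Cuffdiff 2.1.1, Cufflinks 2.2.1, TopHat2 2.0.4, FastQC 0.10.1 and the build mm10. Their strand setting is not given in the sources used here, and FPKM tables keep no read counts, so intervals for counting error cannot be given. Gene symbols came from GENCODE M21, which matched 47305 of 47719 identifiers. All 37 mitochondrial genes have the value 0 throughout, so listing at 0 may mean that no estimate was made.

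Differences were estimated on log2(FPKM + 1) in limma 3.58.1 (R 4.3.3), with 1 mean per group over all 12 libraries, a variance trend and a robust prior. A gene entered if 3 or more libraries reached 1 FPKM. Two-sided p-values were adjusted by Benjamini-Hochberg over 14109 genes per comparison, and a call means an adjusted p under 0.05. All adjusted p in the text are limma's, from this fit or a stated alternative. The 7 comparisons were the 5 of the series design, the interaction of diet and LPS, and LPS averaged over diets. The fit was tested on simulated data. An exact permutation test of 3 against 3 libraries cannot go below 0.1, so none is given.

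The members and the pathway and marker lists were chosen with earlier results of these data known. Text names all 10 members. From each pathway list it takes the 2 highest and 2 lowest differences among called genes whose groups do not overlap, plus any gene called between diets. It adds the 2 genes of nearest profile per tested member. Some of these are not reported here. Il1rap, Nlrp3, Casp1, Gsdmd, Il1f5, Il1f8, Il1f10 and the second-diet values of Il1r2, Il1rl2, Pycard and Casp8 are given outside that rule, chosen after their values were seen. Alternatives were another pseudocount, other filters, equal total FPKM, median-ratio factors, quantile normalization, a replicate block and leaving out each library. Promoter sequences are RefSeq's, build GRCm38.p6.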

Additional observations from a re-analysis of the deposited data

How the results depend on the processing

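The 42 differences of single members followed here were a selection. They hold every difference between LPS and saline, but only some of those between diets or of the interaction. Very small ones were left out, such as ethanol against pair-feeding for Tnf averaged over LPS states (-0.002) and Il1r1 with LPS (0.02). Whether the direction of those left out holds is not reported. Over the 42 and their 701 alternatives, the direction never reversed and 686 kept their side of the threshold. Another 11 crossed to a call (Il1a and Il18) and 4 lost one. The 4 lost were in pair-fed mice: Il1r1 (0.50, adjusted p = 0.0768) and Tnfrsf1a (1.06, adjusted p = 0.0801) with equal total FPKM, and Il1r1 (0.71, adjusted p = 0.0533) and Il18 (1.08, adjusted p = 0.0681) without the 3 libraries of lowest GC slope. The cause was not tested. Leaving out each library gave 9 members called in pair-fed mice and 8 under ethanol every time, and 0 to 1 for ethanol against pair-feeding with LPS and averaged over LPS states, where the 1 is Il18 without PF_LPS replicate 1. With a pseudocount of 0.1 in the ratio, Il1rn to Il1b in ethanol saline libraries was 0.121 in place of 0.0644, and Tnfrsf1b to Tnfrsf1a in pair-fed saline libraries 0.113 in place of 0.0991.

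Deviations from the group mean were correlated between libraries of different groups. Over 18 same-numbered pairs r was -0.21 to 0.28 (median -0.03), with 5 over 0.1. Over 36 differently numbered pairs r was -0.35 to 0.39 (median 0.02), with 6 over 0.1. Of the 12 libraries, 3 correlated best with their own number. With the replicate block, 9, 8 and 9 members were called for LPS in pair-fed, ethanol-fed and both, and 0 in each of the 4 ethanol and interaction comparisons, as without it.

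Over all genes, calls under the alternatives ranged from 858 to 1653 higher and 472 to 2565 lower in pair-fed mice (1589 and 972 reported), and from 974 to 1806 higher and 522 to 1772 lower in ethanol-fed mice (1504 and 902). LPS averaged over diets gave 1267 to 2513 higher and 1414 to 4512 lower (2319 and 1856), and quantile normalization 1866 higher and 2372 lower. Ethanol with LPS gave 1 to 19 higher and 0 to 27 lower (5 and 9), without LPS 2 to 5 and 1 to 13 (2 and 2), averaged 3 to 22 and 4 to 54 (14 and 31), and the interaction 1 to 10 and 1 to 8 (2 and 2). Low FPKM limits what can be said of Il1a and Tnf at baseline.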
